A study of Mus musculus with 38 samples.

Results

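The 10 genes described here, Pecam1, Cdh5, Kdr, Flt1, Tek, Tie1, Emcn, Vwf, Plvap and Angpt2, are widely used markers of blood vessel endothelium. They were chosen by symbol, and all 10 had a row in both deposited count tables, which hold 55487 genes each. The tables come from mouse high-grade serous ovarian cancer (HGSOC). The 60577 line was injected into FVB mice and the HGS2 line into C57BL/6J mice, in each case into the peritoneal cavity of female mice aged 8 to 9 weeks. Carboplatin at 20 mg/kg with paclitaxel at 10 mg/kg, or vehicle, was given weekly for 3 doses from day 21 after injection in 60577 and from day 49 in HGS2. Omental tumors were collected 1 day after the last dose (TP1), 7 days after it (TP2) or 21 days after it (TP3), and RNA was extracted from frozen tumor without separating the cells. Controls of 60577 numbered 3 at TP1 and 3 at TP2, and its treated tumors 3, 4 and 4 at the successive times. Controls of HGS2 numbered 3 and 4, and its treated tumors 3, 3 and 4. No TP3 controls were analyzed here, so TP3 tumors were set against TP2 controls, and treatment and time cannot be told apart in that comparison. HGS2 TP3 treated replicate 1 was deposited but is not in the study's tables, and its value is given here but is left out of the HGS2 tests. Each model is a single transplanted cell line, and the 2 lines grown in culture, with 2 libraries each, hold no host cells.

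Endothelial cells line every vessel and are held together by junctions that contain VE-cadherin. Their growth and survival are controlled by VEGF ligands acting on the receptors encoded by Kdr and Flt1, and vessel maturation by angiopoietins acting on Tek. The omentum is a fatty, highly vascular peritoneal tissue and a common site of HGSOC spread. In RNA from a whole tumor, fewer endothelial cells and less endothelial RNA per cell cannot be told apart.

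By role, the members fall into 4 groups. Pecam1 (CD31) and Cdh5 (VE-cadherin) are adhesion molecules, and Pecam1 is also found on platelets and leukocytes. Kdr (VEGFR2), Flt1 (VEGFR1), Tek (TIE2) and Tie1 are receptor tyrosine kinases. Emcn (endomucin) is a sialomucin of capillaries and veins, Plvap forms the diaphragms of fenestrated endothelium, and Vwf is the clotting factor stored in endothelial granules and in platelets. Angpt2 is the angiopoietin that activated endothelium releases and that can antagonize TIE2.

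In the GRCm38 annotation (GENCODE M21) all 10 are protein-coding genes, and no base of their exons is shared with an exon of another gene. Flt1 (chr5:147561604-147726011, minus strand) and Kdr (chr5:75932827-75978458, minus strand) lie on the same chromosome. Tek (chr4:94739289-94874976, plus strand) and Tie1 (chr4:118471191-118490061, minus strand) share another. Cdh5 (chr8:104101625-104144511, plus strand) overlaps the antisense gene Gm29682, Plvap (chr8:71497765-71511752, minus strand) overlaps Gtpbp3, and Angpt2 (chr8:18690263-18741562, minus strand) lies across Mcph1, each partner being on the opposite strand, and the libraries were strand-specific. The other members are Pecam1 (chr11:106654217-106750628, minus strand), Emcn (chr3:137341067-137432185, plus strand) and Vwf (chr6:125546774-125686679, plus strand).

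RefSeq promoters (GRCm38.p6) matched 5 of the 10 members by symbol. The 250 bases upstream of the start of the 4 receptor genes are shown because the results below turn on these receptors, of which Flt1 fell and Tek rose at TP3. Capitals mark the ETS-family letters CGGAAG or AGGAAG on either strand, which 39% of the 27025 promoters of that length in the table hold.
Flt1 (chr5:147726012-147726261, minus strand): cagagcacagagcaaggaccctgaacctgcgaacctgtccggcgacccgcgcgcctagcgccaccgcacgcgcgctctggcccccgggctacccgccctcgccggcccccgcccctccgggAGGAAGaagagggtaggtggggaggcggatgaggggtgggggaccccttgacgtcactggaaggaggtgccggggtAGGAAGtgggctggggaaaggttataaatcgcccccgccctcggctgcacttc
Kdr (chr5:75978456-75978705, minus strand): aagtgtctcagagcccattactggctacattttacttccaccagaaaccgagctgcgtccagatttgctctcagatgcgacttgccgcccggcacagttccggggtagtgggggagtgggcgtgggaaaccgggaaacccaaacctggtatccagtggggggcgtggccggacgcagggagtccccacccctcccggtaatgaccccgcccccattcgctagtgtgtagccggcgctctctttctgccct
Tie1 (chr4:118489850-118490099, minus strand): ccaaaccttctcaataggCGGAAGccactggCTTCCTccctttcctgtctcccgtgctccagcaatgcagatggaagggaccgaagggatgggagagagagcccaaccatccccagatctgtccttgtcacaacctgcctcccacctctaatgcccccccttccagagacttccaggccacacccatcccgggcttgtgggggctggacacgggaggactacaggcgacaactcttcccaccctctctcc
Tek (chr4:94739039-94739288, plus strand): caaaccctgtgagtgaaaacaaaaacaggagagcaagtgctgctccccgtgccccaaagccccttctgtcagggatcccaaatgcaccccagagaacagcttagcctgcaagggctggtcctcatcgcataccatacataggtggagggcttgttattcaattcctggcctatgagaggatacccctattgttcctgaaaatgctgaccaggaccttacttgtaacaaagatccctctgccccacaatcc
Flt1 and Tie1 held 2 matches each and Kdr and Tek held 0. The remaining matched promoter, Emcn, also held 2. The hypoxia-response letters ACGTG or GCGTG, present in 38.6% of promoters, occurred 2 times in Kdr, 1 time in Flt1 and 1 time in Emcn, and 0 times in Tie1 and Tek.

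Sequencing depth, as the total of expected counts, ranged from 17839635 to 49299442 over the tumors and from 31633121 to 42461995 over the lines. Levels below are CPM (each count as a share of its library, scaled by TMM to a common total), and are comparable between libraries of a table but not between genes unless divided by exon length. All 10 members passed the filter in tumors (at least 1 CPM in at least 25% of libraries). A gene was called at a Benjamini-Hochberg adjusted p below 0.05 over all genes tested, and p-values are from edgeR's quasi-likelihood test, two-sided, unless another test is named.

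A single library stood far apart and touched every 60577 comparison that involves TP2 controls. In 60577 TP2 control replicate 2, 9 of the 10 members had their lowest value among all 34 tumors, Flt1 being the exception. The share of all genes that were lowest in that library was not counted. Many markers of other cells were also low there, as given under Other observations, so this was not shown to be particular to the members. Cdh5 was 0.653 CPM there against 14.9 to 50.6 CPM in the other 5 controls of the model, Plvap 0.467 against 13.2 to 64.2 CPM, and Emcn 0.0311 against 2.25 to 7.7 CPM. Flt1, at 214 CPM, lay within the 165 to 215 CPM of the other 5. The library was not shallow, with 30585090 counts and rank 26 of 34 from the lowest. It also widens the spread shared by all 60577 groups, so values without it are given beside the results whose call or size it changes.

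Compared per kilobase of exon, the level of Kdr was highest in 60577 controls, with a median of 16.9 CPM per kb and a range of 3.14 to 20.8, followed by Flt1 with a median of 15.3 (12.2 to 15.9) and Plvap with 12.7 (0.235 to 32.3). Tek (median level 0.65 CPM per kb) and Emcn (0.517) were lowest. In HGS2 controls the order of levels began with Plvap at 21 CPM per kb (16.9 to 51), then Kdr at 11.5, Cdh5 at 10.8, Flt1 at 9.11 and Pecam1 at 7.89, and again ended with Tek (1.34) and Emcn (1.25). Ranges of neighbors in either order overlapped, except that Pecam1 (6.27 to 14.9 CPM per kb) and the next gene, Vwf (2.55 to 6.18), did not overlap in HGS2 controls. In treated 60577 tumors Flt1 stood seventh, at a median of 5.33 CPM per kb, and Pecam1 second, at 15.7.

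The cell lines separated the members sharply. Cdh5, whose product is confined to endothelial junctions, had 0 counts in all 4 cell line libraries, which allows a level of up to 0.101 CPM (3 counts) in the shallowest. Pecam1 had 3 to 19 counts, Vwf 3 to 32, Tie1 0 to 2, Plvap 0 to 29, Emcn 0 to 26 and Tek 3 to 44. Kdr, in contrast, had 873 to 1551 counts and Flt1 313 to 1521. The tables were scaled separately, so the levels that follow are set side by side with no test. Kdr was 23.9 and 24.8 CPM in the 60577 line and 52.3 and 38.9 CPM in the HGS2 line, and Flt1 was 29.1 and 34.2 CPM in 60577 and 13.9 and 8.45 CPM in HGS2. Over the tumors Kdr ranged from 28.4 to 231 CPM and Flt1 from 50.4 to 232 CPM. Cdh5, Tie1, Pecam1 and Vwf were thus at or near 0 outside the tumors, whereas reads of Kdr and Flt1 were also present in cultured cells that lack Cdh5. How much of the tumors' Kdr and Flt1 came from the malignant cells was not tested.

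Between the lines, 4 members passed the filter and 3 were called, where 18.9% of the 13742 genes tested were called. In HGS2 against 60577, Kdr was higher by a log2 fold change of 0.90 ± 0.22 (SE, adjusted p = 0.0427) and Angpt2 by 3.48 ± 0.52 (adjusted p = 0.0147), from 0.192 and 0.202 CPM to 2.29 and 2.19 CPM. Flt1 was lower there (-1.50 ± 0.30 on the log2 scale, adjusted p = 0.0278). The Kdr call was lost in a fit with the replicate number as a block (adjusted p = 0.0693). Each of the 3 calls was lost when either 60577 library was left out, with the count of called members then 0.

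**Figure D1:**
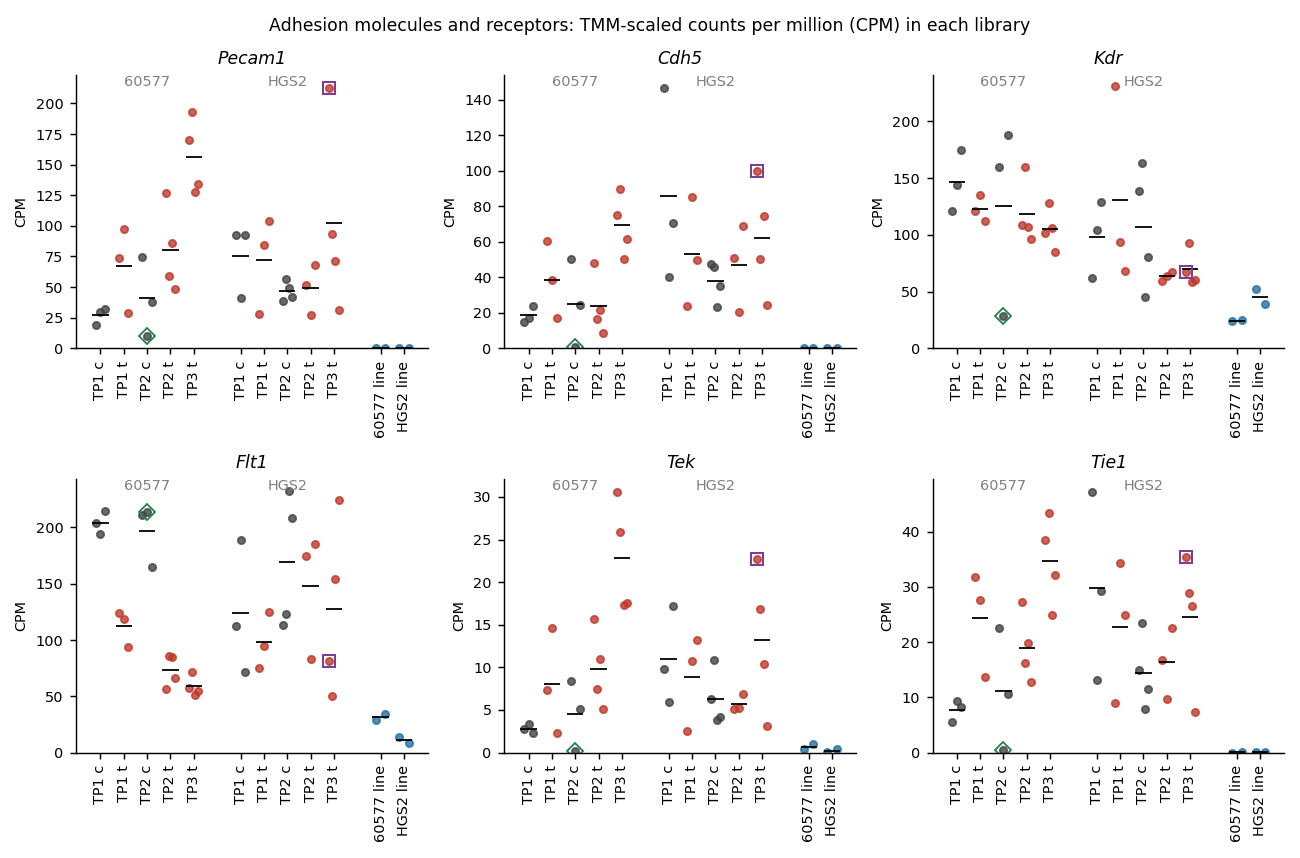
Level of 6 members in every library, in TMM-scaled CPM (vertical axes start at 0), by model, time point and arm (c, control, gray; t, treated, red; cultured lines, blue); bars are group means, the green diamond is 60577 TP2 control replicate 2 and the purple square is HGS2 TP3 treated replicate 1. In 60577 the TP3 treated tumors lie at 128 to 193 CPM for Pecam1, above every control, while Flt1 runs the other way, from 165 to 215 CPM in controls to 51.3 to 72 CPM at TP3.

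In 60577 tumors Flt1, the VEGF receptor that binds ligand with high affinity but signals weakly and that also has a soluble form not separated in gene-level counts, was lower after chemotherapy at each time point. It was 204, 194 and 215 CPM in TP1 controls and 124, 119 and 93.8 CPM in TP1 treated tumors. At TP2 it was 211, 214 and 165 CPM in controls against 56.6, 85.4, 85.2 and 66.5 CPM in treated tumors. The TP3 treated tumors held 57.4, 72, 51.3 and 55.1 CPM. No treated tumor reached the level of any control.

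Flt1 fell by 0.86 ± 0.17 on the log2 scale at TP1 (adjusted p = 0.00168), by 1.44 ± 0.16 at TP2 (adjusted p = 8.24e-06) and by 1.73 ± 0.16 at TP3 against TP2 controls (adjusted p = 8.72e-07). Between treated tumors it fell by a further 0.62 ± 0.16 from TP1 to TP2 (adjusted p = 0.0178), and from TP2 to TP3 it differed by -0.30 ± 0.15 (adjusted p = 0.13). The library that stands apart had little bearing here: without it the values were -0.86, -1.36 and -1.66, all called. The TP1 call was lost when both models were fitted together (adjusted p = 0.122). The TP2 against TP1 call was lost in that joint fit (adjusted p = 0.283) and without TP1 treated replicate 1 (adjusted p = 0.0964).

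Kdr, the main signaling receptor for VEGF-A, differed little. Controls held 121, 144 and 175 CPM at TP1 and 160, 28.4 and 188 CPM at TP2, and treated tumors 121, 135 and 112 CPM at TP1, 109, 160, 107 and 96.3 CPM at TP2 and 102, 128, 106 and 85.1 CPM at TP3. The groups overlapped at each time. The log2 fold changes were -0.25 ± 0.43, -0.09 ± 0.40 and -0.24 ± 0.40, none called. With TP2 control replicate 2 left out, Kdr fell by 0.57 ± 0.20 at TP2 (adjusted p = 0.0302) and by 0.71 ± 0.20 at TP3 (adjusted p = 0.00988). Its decrease therefore rested on leaving out that library.

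Of the adhesion molecules, Pecam1 rose at TP3. It was 19.1, 29.9 and 32.4 CPM in TP1 controls and 74.9, 9.95 and 38.1 CPM in TP2 controls. Treated tumors held 73.9, 97.7 and 28.9 CPM at TP1, 127, 59.1, 86.3 and 48.8 CPM at TP2, and 170, 193, 128 and 134 CPM at TP3. Every TP3 tumor exceeded every control, and the earlier treated groups overlapped their controls. Pecam1 rose at TP3 by 1.95 ± 0.55 on the log2 scale (adjusted p = 0.0078), and by 1.48 ± 0.47 without TP2 control replicate 2 (adjusted p = 0.0199). At TP1 the difference was 1.31 ± 0.56 (adjusted p = 0.0866) and, without that library, 1.31 ± 0.43, called (adjusted p = 0.0268).

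Tek, the angiopoietin receptor, had the largest log2 fold change of the 10 members at TP3 with all libraries in. It was 8.39, 0.187 and 5.07 CPM in TP2 controls and 30.6, 25.9, 17.3 and 17.5 CPM in TP3 tumors, without overlap. The change was 2.34 ± 0.77 (adjusted p = 0.0193), and 1.77 ± 0.58 without the library that stands apart (adjusted p = 0.0236). In a fit that adjusts for 7SL RNA, the noncoding RNA of the signal recognition particle, it was 2.44 and not called (adjusted p = 0.0582). At TP1 Tek was 2.74, 3.39 and 2.28 CPM in controls and 7.36, 14.6 and 2.25 CPM in treated tumors, a log2 difference of 1.53 ± 0.80 that was not called (adjusted p = 0.157), and of 1.53 ± 0.54, called, without that library (adjusted p = 0.0383).

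Its relative Tie1, an orphan receptor that associates with TIE2, was 5.55, 9.26 and 8.29 CPM in TP1 controls and 31.8, 27.7 and 13.7 CPM in TP1 treated tumors. These groups did not overlap, and the log2 difference was 1.67 ± 0.72 (adjusted p = 0.0881). Without the library that stands apart the estimate was the same and its SE 0.37 (adjusted p = 0.0032). At TP3 Tie1 was 38.4, 43.4, 24.9 and 32.1 CPM, again above every control, with a log2 difference of 1.64 ± 0.68 (adjusted p = 0.0563) and of 1.08 ± 0.40 without that library (adjusted p = 0.0401).

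Vwf was the only member besides Flt1 called at TP2. Its level was 43.4, 4.7 and 42.5 CPM in TP2 controls, 181, 76.3, 128 and 47.8 CPM in TP2 treated tumors and 164, 157, 109 and 150 CPM in TP3 tumors. Neither treated group overlapped the controls. Vwf rose by 1.84 ± 0.71 at TP2 (adjusted p = 0.0368) and by 2.28 ± 0.72 at TP3 (adjusted p = 0.016). The TP2 value was 1.33 ± 0.65 without TP2 control replicate 2 and was not called (adjusted p = 0.0997), nor was it without TP2 treated replicate 1 (adjusted p = 0.0919) or replicate 3 (adjusted p = 0.0651) or with the replicate block (adjusted p = 0.0603) or with adjustment for 7SL RNA (adjusted p = 0.0668). The TP3 value was 1.77 ± 0.66 without that control (adjusted p = 0.0419), and it was not called with adjustment for 7SL RNA (adjusted p = 0.0773) or without that control in the fit with the replicate block (adjusted p = 0.0655). At TP1 Vwf was 13.4, 32.2 and 26.6 CPM in controls and 64.2, 176 and 23.1 CPM in treated tumors, which overlapped. The log2 difference there was 1.87 ± 0.74 (adjusted p = 0.0642), and 1.87 ± 0.59, called, without TP2 control replicate 2 (adjusted p = 0.0235).

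Cdh5, Emcn and Plvap were highest at TP3 by group mean within wider spreads. Cdh5 was 50.6, 0.653 and 24.3 CPM in TP2 controls, 48.3, 16.7, 21.3 and 8.83 CPM in TP2 treated tumors and 75.3, 89.7, 50.6 and 61.7 CPM in TP3 tumors, so the highest control lay level with the lowest TP3 tumor. Its log2 difference at TP3 was 1.47 ± 0.82 (adjusted p = 0.147). For Emcn it was 1.26 ± 0.79 (adjusted p = 0.2) and for Plvap 1.65 ± 0.87 (adjusted p = 0.125), whose 71.9 to 122 CPM at TP3 lay above the 0.467 to 64.2 CPM of TP2 controls. In the main edgeR fit none of the 3 was called against controls at any time, with or without TP2 control replicate 2. This depended on the fit. The larger counts given below, for limma-voom at TP3 and for the acinar covariate at TP2 and TP3, must include some of these 3.

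**Figure D2:**
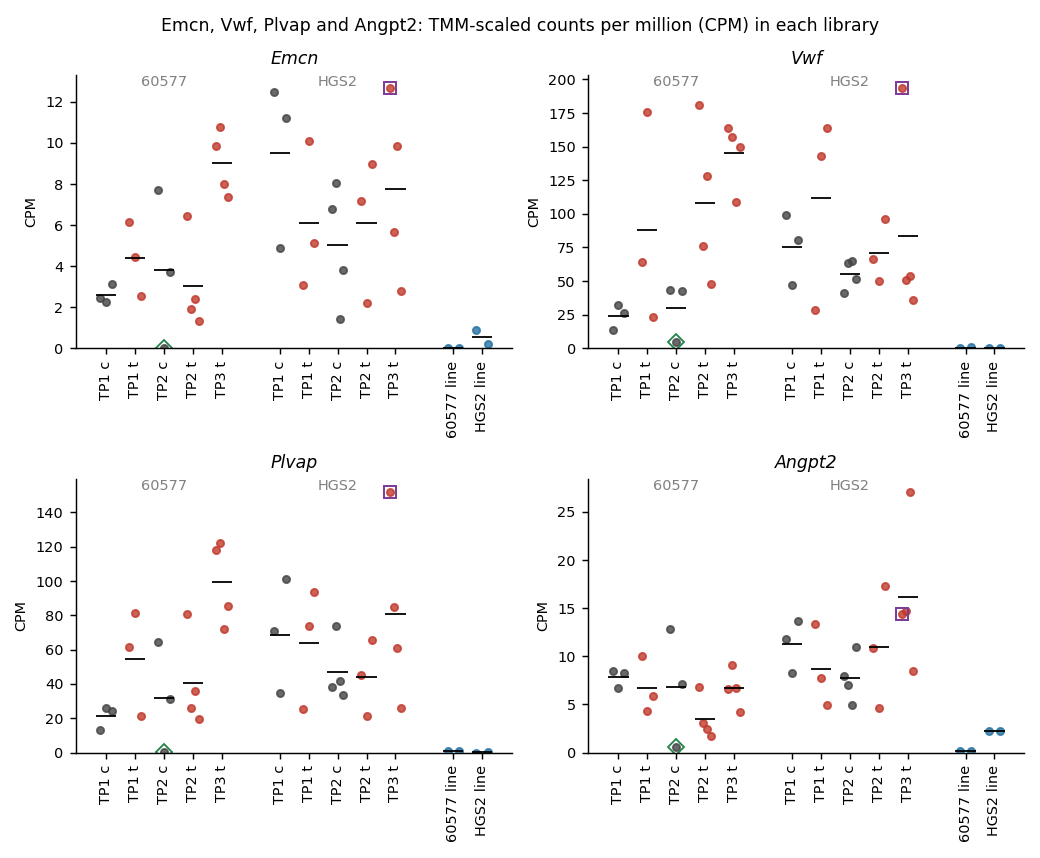
Level of Emcn, Vwf, Plvap and Angpt2 in every library, in TMM-scaled CPM (vertical axes start at 0), with groups, colors, bars and marked libraries as in the plot of adhesion molecules and receptors. Vwf in TP3 60577 tumors spans 109 to 164 CPM against 4.7 to 43.4 CPM in controls, whereas Angpt2 spans 4.23 to 9.14 CPM against 0.622 to 12.8 CPM.

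Angpt2, unlike Pecam1, Tek and Vwf, was not called higher at any time. It was 8.5, 6.66 and 8.32 CPM in TP1 controls and 12.8, 0.622 and 7.12 CPM in TP2 controls. Treated tumors held 9.99, 4.32 and 5.9 CPM at TP1, 6.85, 3.03, 2.41 and 1.69 CPM at TP2 and 6.59, 9.14, 6.72 and 4.23 CPM at TP3. The groups overlapped at each time, and the log2 differences were -0.21 ± 0.68, -0.96 ± 0.64 and -0.02 ± 0.64, none called. Without the library that stands apart Angpt2 fell by 1.50 ± 0.46 at TP2 (adjusted p = 0.0153), and the TP3 difference was -0.56 ± 0.46 (adjusted p = 0.345).

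Counted together, 1 of 10 members was called at TP1, 2 at TP2 and 4 at TP3, where 33.3%, 58.4% and 51.4% of the 16241 genes tested were called. When TP2 control replicate 2 was left out the counts were 5 (4 higher and 1 lower), 3 (all lower) and 6 (4 higher and 2 lower), where 35.6%, 48.5% and 43.8% of genes were called. The shares of members called thus lay near or below the background with that library in at every time. Leaving out TP1 treated replicate 3 raised the TP1 count to 3, leaving out TP2 control replicate 1 raised the counts at TP2 and TP3 to 4 and 7, and leaving out TP2 treated replicate 1 or 3 gave 1 at TP2. The background of these last fits is not given. The comparisons at TP2 and TP3 share their controls. The median log2 fold change of all genes was 0.03 or less in size in each of them.

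Within treated 60577 tumors, 1 member, Flt1, was called between TP1 and TP2 (background 19.3%) and 0 between TP2 and TP3 (background 35%), where edgeR gave 1 member, Emcn, at an unadjusted p below 0.05, limma-voom called 0 with 3 unadjusted, and DESeq2 0 with 2. The count was 3 without TP2 treated replicate 1. In the fit that leaves out TP2 control replicate 2, 6 of 10 members rose from TP2 to TP3 (background 37.2%), namely Emcn by 1.58 ± 0.42 (adjusted p = 0.0123), Cdh5 by 1.56 ± 0.46 (adjusted p = 0.0195), and Plvap, Tek, Pecam1 and Tie1 by 1.31, 1.24, 0.98 and 0.89. That library takes no part in this comparison except through the shared estimate of the spread, and the fold changes were the same to within 0.01 with it in. Between control tumors of TP1 and TP2, 0 members and 0% of genes were called by edgeR, and 0 members had an unadjusted p below 0.05 by edgeR, limma-voom or DESeq2. Without TP2 control replicate 2, which leaves 2 TP2 controls, 0 members were called and 3 had an unadjusted edgeR p below 0.05, with log2 differences of 1.06 ± 0.46 for Pecam1 (adjusted p = 0.868), 1.27 ± 0.58 for Tek (adjusted p = 0.889) and 1.11 ± 0.40 for Tie1 (adjusted p = 0.807). The 2 remaining TP2 controls lay above all TP1 controls for 7 of the 10 members. The share of all genes that did so was not counted. These 7 members vary closely together, so the count is a description only. For the unadjusted counts of members in this paragraph, shares of all genes are not given either.

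**Figure D3:**
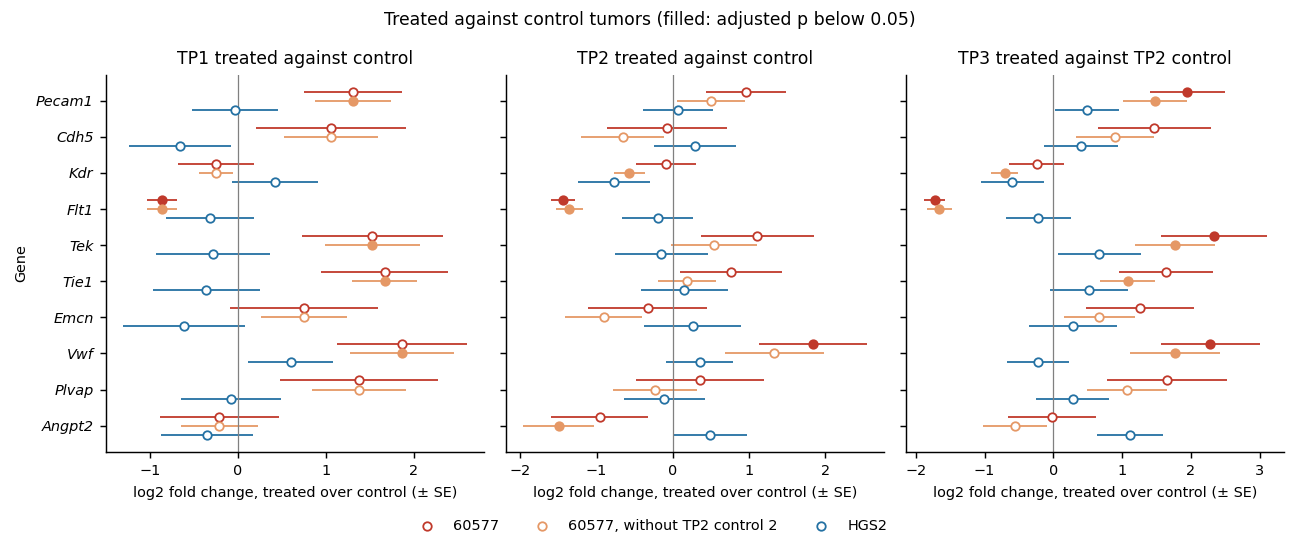
Log2 fold change (horizontal axes) with its standard error for each member, treated over control tumors, for 60577 (red), 60577 without TP2 control replicate 2 (orange) and HGS2 (blue); filled points have an adjusted p below 0.05 by edgeR's quasi-likelihood test. Flt1 in 60577 is the only member filled on the negative side at all 3 times, at -0.86, -1.44 and -1.73, and no HGS2 point is filled.

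In HGS2 tumors 0 of 10 members were called in any of the 6 comparisons within the model, and the background was 0%, since edgeR called 0 of 16241 genes in each. DESeq2 and limma-voom also called 0 members in each. At an unadjusted p below 0.05 edgeR gave 1 member in these comparisons, Angpt2 at TP3, with a log2 difference of 1.12 ± 0.48 (adjusted p = 1) and a 95% interval from 0.18 to 2.06, in a fit without HGS2 TP3 treated replicate 1. Limma-voom also gave 1 such member at TP3 and 0 elsewhere, and DESeq2 gave 1 in each of 3 comparisons. The shares of all genes at that unadjusted cut are not given, so these counts have no background beside them. Angpt2 was 7.96, 7.01, 4.96 and 11 CPM in HGS2 TP2 controls and 14.7, 27.1 and 8.46 CPM in the TP3 tumors tested, with 14.4 CPM in the one left out.

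Cdh5 in HGS2 was 147, 40.2 and 70.4 CPM in TP1 controls, 23.8, 85.1 and 49.9 CPM in TP1 treated tumors, 47.5, 45.6, 23.3 and 35.2 CPM in TP2 controls, 50.9, 20.7 and 68.9 CPM in TP2 treated tumors, and 50.2, 74.8 and 24.5 CPM in TP3 tumors, with 100 CPM in replicate 1. Flt1 was 112, 189 and 71.5 CPM in TP1 controls and 74.8, 95.1 and 125 CPM in TP1 treated tumors, and at TP2 it was 113, 123, 232 and 208 CPM in controls and 175, 83.3 and 185 CPM in treated tumors. Controls and treated tumors overlapped for both genes at both times. The log2 difference of Flt1 was -0.32 ± 0.50 at TP1, -0.20 ± 0.47 at TP2 and -0.22 ± 0.47 at TP3, and these intervals reach 0.67, 0.73 and 0.70 at their upper 95% limit. At TP1 the interval held both 0 and a decrease of the size seen in 60577, so these were not separable. At TP2 and TP3 the interval held 0, and the 60577 estimate lay below its lower limit. The 60577 estimates have a spread of their own, and the difference between models is tested below for TP1 and TP2.

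The difference between the models in response was tested directly. By edgeR 0 of 10 members were called at TP1 (background 1.77%) and 0 at TP2 (background 10.3%), as with DESeq2 and limma-voom. At TP2 Flt1 changed by 1.23 ± 0.50 more in HGS2 than in 60577 on the log2 scale (adjusted p = 0.109, 95% interval 0.24 to 2.22), the only member with an unadjusted edgeR p below 0.05, and at TP1 there were 0. DESeq2 gave 1 such member at each time, and limma-voom 0 at TP1 and 2 at TP2. At TP1 Tie1 had the largest difference, -2.06 ± 1.01 (adjusted p = 0.268). Without 60577 TP2 control replicate 2 the calls were again 0 at both times, and unadjusted p-values below 0.05 numbered 3 at TP1 (Cdh5, Tek and Tie1) and 2 at TP2 (Flt1 and Angpt2). The differences were then -2.06 ± 0.75 for Tie1 at TP1 (adjusted p = 0.132) and 2.01 ± 0.70 for Angpt2 at TP2 (adjusted p = 0.106). Shares of all genes at an unadjusted p below 0.05 are not given, so the unadjusted counts of members cannot be read against a background. That members were called in 60577 and not in HGS2 does not show that the responses differed.

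Between control tumors of the models, Cdh5 and Vwf were called in the main fit, a share below the background, and neither call held under every setting. HGS2 controls exceeded 60577 controls by 1.40 ± 0.55 in Cdh5 (adjusted p = 0.0357) and by 1.26 ± 0.46 in Vwf (adjusted p = 0.0236), 2 called of 10 where 51.5% of genes were called. The ranges overlapped, at 23.3 to 147 CPM against 0.653 to 50.6 CPM for Cdh5 and 41 to 99.3 against 4.7 to 43.4 CPM for Vwf. Only Cdh5 was called without TP2 control replicate 2, at 1.11 ± 0.44 (adjusted p = 0.0397), where 47.7% of genes were called. Limma-voom without that library did not call it (1.03, adjusted p = 0.0569). With all libraries in, the replicate block gave 0.24 for Cdh5 (adjusted p = 0.896). Its call was also lost in several fits without 1 library, such as HGS2 TP2 control replicate 2 (adjusted p = 0.052) or 60577 TP1 control replicate 2 (adjusted p = 0.0647). Limma-voom called 7 members, DESeq2 4 and the fit with the replicate block 0, and leaving out each library in turn gave 0 (without HGS2 TP1 control replicate 1 or 60577 TP1 control replicate 1) to 7 (without 60577 TP2 control replicate 1). Shares of all genes called in those fits are not given, so these counts show only how the calls depended on the fit. The models also differ in mouse strain and in the age of the tumor, which cannot be told apart from the line.

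Relative to Cdh5, Angpt2 was lower in treated 60577 tumors at TP1 and TP2. Which cells its reads came from was not tested. The log2 ratio of Angpt2 to Cdh5 averaged -1.23 in TP1 controls and -1.27 in TP2 controls, and -2.42 and -2.67 in the treated tumors of these times. At TP2 the controls ran from -1.98 to -0.06 and the treated tumors from -3.11 to -2.34, without overlap, and at TP1 from -1.50 to -0.81 and from -3.14 to -1.54, again without overlap. The ratio fell by 1.30 on average (exact permutation test within TP1 and TP2, two-sided, p = 0.00143, the smallest that the 700 permutations can give, adjusted p = 0.00857 over the 6 tests of 3 ratios and 2 models). The ratio fell by 1.00 without TP2 control replicate 2 (exact permutation p = 0.00667). In HGS2 the same ratio differed by 0.19 (exact permutation p = 0.739, adjusted p = 0.859). Whether the 2 models differed in this ratio was not tested.

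The ratio of Plvap to Cdh5 was higher by 0.52 in treated 60577 tumors (exact permutation p = 0.0414, adjusted p = 0.124) and that of Vwf to Cdh5 by 0.89 (exact permutation p = 0.114, adjusted p = 0.229). Without TP2 control replicate 2 the Plvap value was 0.39 (exact permutation p = 0.0867) and the Vwf value 1.29 (exact permutation p = 0.02). In HGS2 they differed by 0.07 (exact permutation p = 0.859) and 0.55 (exact permutation p = 0.177). Neither ratio passed the adjusted threshold in either model.

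**Figure D4:**
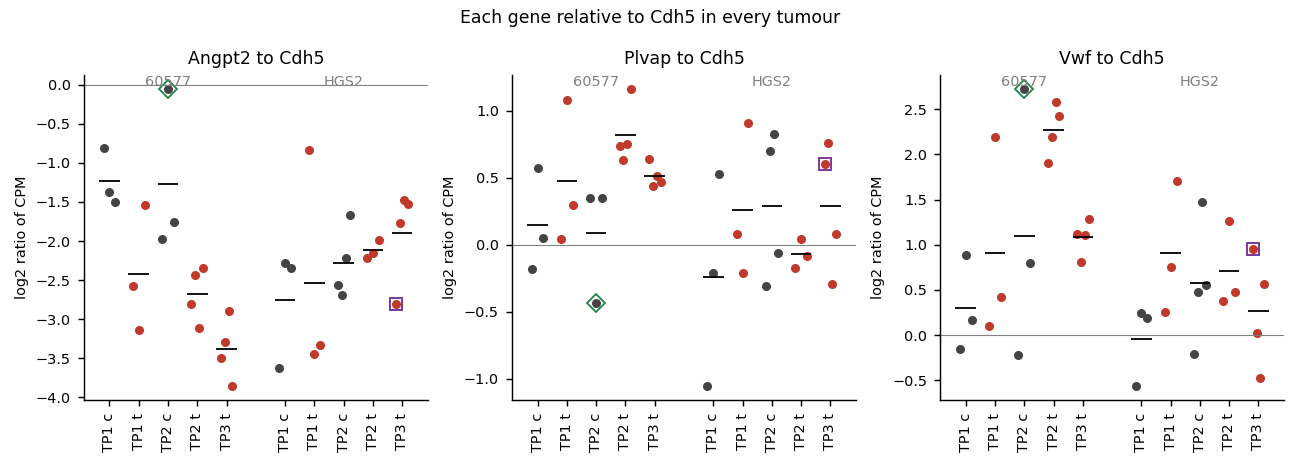
Log2 ratio of the CPM of Angpt2, Plvap and Vwf to that of Cdh5 (vertical axes) in every tumor, by model, time point and arm, with bars at group means and libraries marked as in the plots of levels. In 60577 all treated tumors of TP1 and TP2 lie between -3.14 and -1.54 for Angpt2, below the controls of their own time point.

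Across tumors 7 of the members varied closely together. Deviations from group means in log2 CPM were correlated among Pecam1, Cdh5, Tek, Tie1, Emcn, Vwf and Plvap with a median r of 0.94 over their 21 pairs in 60577 (0.81 to 0.99, 17 tumors) and 0.82 in HGS2 (0.50 to 0.97, 16 tumors). With these genes, Flt1 had a median r of -0.04 in 60577 and -0.19 in HGS2, Kdr 0.86 and -0.11, and Angpt2 0.89 and 0.25. Without TP2 control replicate 2 the 60577 medians were 0.89 within the set, 0.26 for Flt1, 0.20 for Kdr and 0.53 for Angpt2, so the high value for Kdr rested on that library, and Angpt2 still ranged from 0.17 to 0.84 with the single genes of the set. The set was picked after the values were seen, the points share libraries and scaling, and these values are a description.

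**Figure D5:**
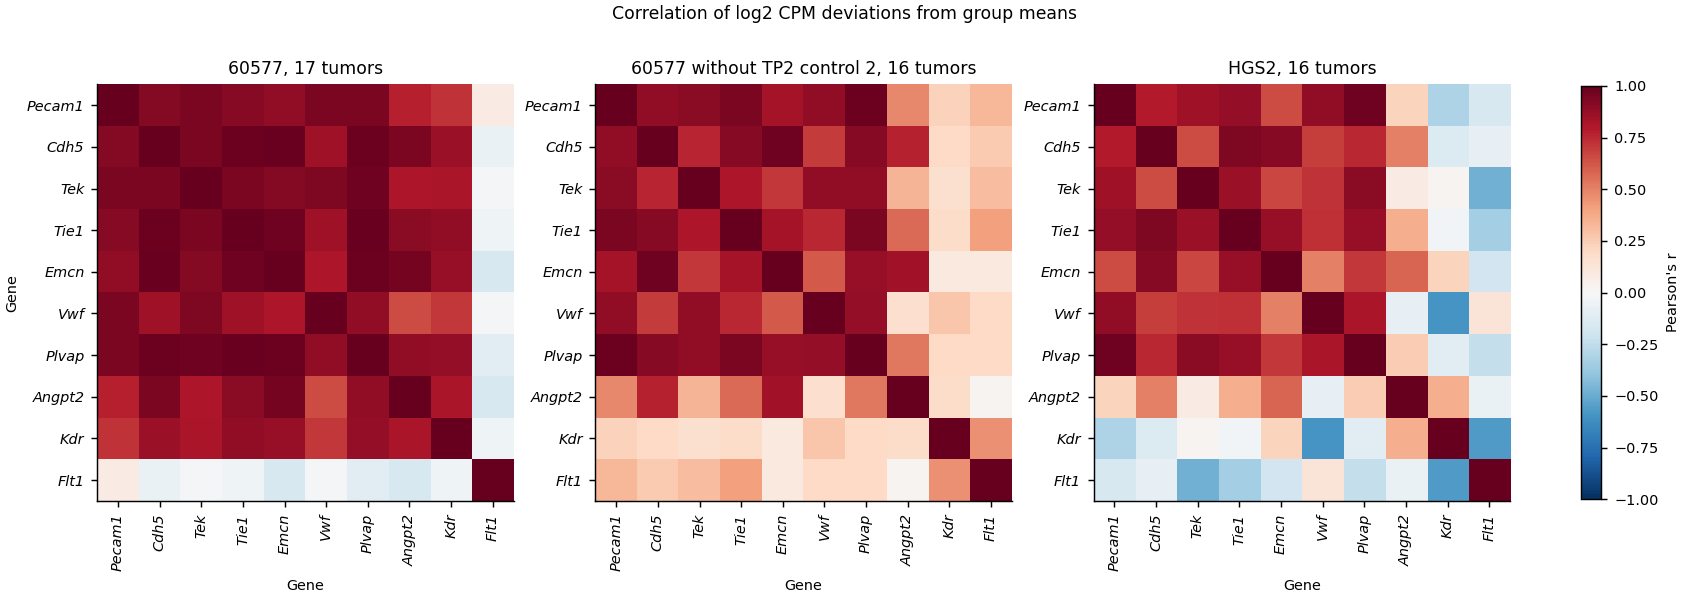
Pearson's r between members over deviations of log2 CPM from group means (color scale from -1 to 1), for 17 60577 tumors, for the 16 without TP2 control replicate 2 and for 16 HGS2 tumors. The block of 7 genes from Pecam1 to Plvap is positive in each panel, with a lowest r of 0.50, while Kdr and Flt1 are weakly or negatively correlated with it in HGS2.

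The genes outside the list whose pattern was most like the mean of the 10 standardized members, ranked by the lower r of the 2 models in log2 CPM over 17 and 16 tumors, were Robo4 (r = 0.95 in 60577 and 0.93 in HGS2), Adgrf5, Adgrl4, Mmrn2, She, Erg, Dll4, Cyyr1, Nos3 and Egfl7 (lower r of 0.88). Of these 10, 8 stood in the endothelial lists described next. Their r in 60577 without TP2 control replicate 2 ran from 0.63 (Egfl7) to 0.94 (Adgrl4).

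The wider vessel lists are given by their counts, to be read against the 33.3%, 58.4% and 51.4% of all genes called in 60577 at TP1, TP2 and TP3 (35.6%, 48.5% and 43.8% without TP2 control replicate 2). Levels in the 60577 line are printed for some genes only, and which cells any change came from was not tested. Of 18 pan-endothelial genes, 16 rose and 1 fell at TP3, with a median log2 fold change of 1.61 against a median near 0 over all genes, compared with 6 higher and 1 lower at TP1 (median 1.30) and 4 higher and 1 lower at TP2 (median 0.65), which is near the background at TP1 and below it at TP2. Among the most abundant, Cd34, a sialomucin of vessels and progenitors, rose by 1.05 at TP3 (adjusted p = 0.00938), Cd93 by 1.37 (adjusted p = 0.00377) and Adgrf5 by 1.52 (adjusted p = 0.00947). Esam was the gene that fell, by 0.60 (adjusted p = 0.0127), and its mean level was 33.3 CPM in the 60577 line. Leaving out TP2 control replicate 2, 14 rose and 1 fell at TP3 (median 1.19), and 10 rose and 1 fell at TP1. In that library 16 of the 18 lay below the other 5 60577 controls. Cd34 was 67.5 CPM there against 96.7 to 108 CPM, and Cd93 was within their range (42.2 against 40 to 109 CPM).

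Of 14 endothelial transcription factors, 6 were higher at TP1, 7 at TP2 and 12 at TP3, and 0 were lower, against a background in either direction of 33.3%, 58.4% and 51.4%. Epas1, which encodes HIF-2α, rose by 2.09 at TP3 (adjusted p = 0.000151), Ets1 by 1.34 (adjusted p = 6.62e-06) and the shear-responsive factor Klf2 by 0.93 (adjusted p = 0.000161), whereas Klf4 differed by 0.22 (adjusted p = 0.44). At TP3 8 were higher without TP2 control replicate 2. In that library 8 of the 14 lay below the other 5 60577 controls and 2 above. Epas1 (28.4 CPM against 26 to 69.3) and Ets1 (48.1 against 47.4 to 60.3) lay within their range, and Klf2 (42.4 against 23.3 to 41.1) above it.

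Of 11 other receptors and co-receptors, 6 rose and 2 fell at TP3 (background 51.4%), and 4 rose and 2 fell without TP2 control replicate 2 (background 43.8%). Notch1 rose by 1.78 (adjusted p = 1.55e-05) and S1pr1 by 2.12 (adjusted p = 4.71e-05). Flt4 (VEGFR3), the receptor of VEGF-C and VEGF-D, fell by 0.78 at TP1 (adjusted p = 0.00308), 0.98 at TP2 (adjusted p = 0.000143) and 1.94 at TP3 (adjusted p = 3.06e-07), and Nrp2 fell by 0.62 at TP3 (adjusted p = 0.00276). Nrp1 rose by 0.49 (adjusted p = 0.00863, and 0.33 with adjusted p = 0.0525 without TP2 control replicate 2) and Ptprb, the phosphatase that restrains TIE2, differed by 0.77 (adjusted p = 0.109). Mean levels in the 60577 line were 365 CPM for Flt4 and 191 CPM for Nrp2. Notch1 and S1pr1, which were named after their values were seen, averaged 0.423 and 0.309 CPM there.

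Among 12 angiogenic ligands, 5 rose and 3 fell at TP3 (background 51.4%). Vegfa, the main ligand of KDR and FLT1, fell by 2.12 at TP2 (adjusted p = 0.000376) and 2.97 at TP3 (adjusted p = 2.43e-05), and at TP1 the difference was -0.91 (adjusted p = 0.106). Leaving out TP2 control replicate 2, whose Vegfa level of 1138 CPM was above the 330 to 429 CPM of the other 5 controls, Vegfa fell by 0.91 at TP1 (adjusted p = 0.0217), fell by 1.30 at TP2 (adjusted p = 0.00234) and fell by 2.16 at TP3 (adjusted p = 4.32e-05). Pgf, a ligand of FLT1 but not of KDR, fell by 1.42 at TP3 (adjusted p = 0.0149, but -1.11 with adjusted p = 0.0793 without that library) and Pdgfb, which recruits pericytes, by 0.74 (adjusted p = 0.02). Fgf2 rose by 1.51 at TP3 (adjusted p = 3.46e-05), Angpt1, the agonist of TIE2, by 1.70 (adjusted p = 0.0226), and Jag1 differed by 0.06 (adjusted p = 0.819). Without that library 5 ligands rose and 2 fell at TP3.

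Of 6 genes of sprouting tip cells, 0 rose and 5 fell at TP2 (median -1.34, background 58.4%), and 0 rose and 2 fell at TP3, below the background of 51.4%. Unc5b fell by 0.79 at TP2 (adjusted p = 0.001), Apln by 1.78 (adjusted p = 0.0126) and Esm1 by 2.72 (adjusted p = 0.0296), whereas Dll4 differed by -0.09 (adjusted p = 0.921). Unc5b had a mean of 417 CPM in the 60577 line, and Apln and Esm1 had 0.158 and 0 CPM. Pgf, Apln and Dll4 stand in the ligand list too. At TP2 4 fell when TP2 control replicate 2 was left out.

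Of 7 capillary genes tested, 4 rose and 1 fell at TP3 (background 51.4%), or 3 and 1 without TP2 control replicate 2. Cd36, a fatty acid transporter of capillaries that adipocytes and macrophages also express, rose by 5.12 (adjusted p = 6.4e-05), Aqp1 by 1.67 (adjusted p = 0.0324, and 1.22 with adjusted p = 0.109 without that library) and Rgcc by 1.55 (adjusted p = 0.00468), Car4 fell by 3.50 (adjusted p = 0.00234), and Gpihbp1 differed by 0.79 (adjusted p = 0.408). The 11 pericyte and smooth muscle genes tested had 5 higher at TP1, 4 at TP2 and 6 at TP3 and 0 lower, against a background of 33.3%, 58.4% and 51.4%. Pdgfrb, the receptor for the Pdgfb product on pericytes, rose by 1.30 at TP3 (adjusted p = 0.000425) and Notch3 by 1.22 (adjusted p = 0.0381, and 0.75 with adjusted p = 0.0692 without TP2 control replicate 2), while Acta2 differed by 0.82 (adjusted p = 0.0667) and Cspg4 by -0.30 (adjusted p = 0.155).

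The smaller vessel lists were mixed at TP3 in 60577 (background 51.4%). Arterial genes had 1 higher and 1 lower of 5, the lower being Efnb2, which fell by 1.68 (adjusted p = 2.18e-07) and averaged 265 CPM in the 60577 line. Venous and activated endothelial genes had 1 higher and 1 lower of 6, lymphatic genes 2 higher and 2 lower of 7, and high endothelial venule genes 0 higher and 1 lower of 3. Flt4 stands in the lymphatic list too. In HGS2 0 genes of any list were called against controls at TP1, TP2 or TP3, as was true of all genes.

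Markers of other cells moved with the members in 60577, and their part in the results was not tested. The 8 adipocyte genes summed to 39.5 to 59.3 CPM in controls and 3941 to 5018 CPM in TP3 tumors, with 8 of 8 higher. The 6 epithelial genes summed to 1500 to 2114 CPM in controls and 238 to 340 CPM at TP3, with 6 of 6 lower, and the 5 mesothelial genes had 4 lower. The 5 pan-leukocyte genes summed to 224 to 480 CPM in controls and 1004 to 1062 CPM at TP3, with 5 higher, macrophage genes had 4 of 6 higher (2 without TP2 control replicate 2) and fibroblast genes 5 of 6. Of 9 platelet genes 2 passed the filter, and Pf4, which macrophages can also express, rose by 2.01 at TP3 (adjusted p = 0.00646) while Itga2b fell by 0.94 (adjusted p = 0.00446). Gp1ba, Gp6 and Gp9, platelet genes named after their values were seen, averaged at most 0.0488 CPM over tumors. Pf4 was 2.95 to 4.49 CPM and Itga2b 7.7 to 12.4 CPM in the 60577 controls other than TP2 control replicate 2. Whether platelets contributed to Vwf was not tested. Pancreatic acinar genes summed to 0.0694 to 1450 CPM in 60577 controls and up to 125396 CPM in HGS2 controls.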

How the data were processed

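Gene expression was measured by bulk RNA sequencing in 34 omental tumors, each from a separate mouse, and 4 cell line libraries. According to the study's methods and the submitters' processing notes, the authors made strand-specific paired-end libraries depleted of ribosomal RNA, trimmed reads with Trim Galore 0.6.5, mapped to GRCm38 with STAR 2.7.0f and quantified with RSEM. The deposited values are RSEM expected counts (estimated counts) for 55487 genes, neither filtered nor normalized. The authors' correction for length and GC content is not in them, and reads shared between similar genes were divided by RSEM.

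Expected counts were rounded. Genes at 1 CPM or more in 25% or more of the 33 tumors the study shows were kept (16241), and in cell lines by the same rule over 4 libraries (13742). Counts were TMM-scaled and tested with edgeR 4.0.16 in R 4.3.3 (quasi-likelihood test, Benjamini-Hochberg adjustment), the 5 groups of each model together, and both models jointly for differences between them. The standard error is the absolute log2 fold change divided by the square root of edgeR's F. The study's limits add an absolute log2 fold change above 1, used here as an alternative. Log2 CPM used a prior count of 2. Ratios were tested by exact permutation in Python 3.11.15 with scipy 1.17.1. Symbols and positions came from GENCODE M21, which had an entry for 55227 of the genes.

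All 10 members were tested in each tumor comparison. Levels or estimates are printed for all 10 in 60577, but not at every time. For the comparisons within HGS2 they are printed for Angpt2, Cdh5 and Flt1 only. From each wider list up to 4 genes were named, the most abundant over tumors and those whose call went against their list. Exceptions to this, chosen after their values were seen, are Notch1, S1pr1, Angpt1, Pgf, Rgs5, Gp1ba, Gp6 and Gp9. The members and lists were chosen with earlier results of these data known. Groups came from the sample labels, which number replicates but do not pair them. Counts of the 44 replicate pairs differed beyond sampling noise (chi-square over its degrees of freedom, 10 to 773), so no library was a copy. The fits were tested on simulated data. Alternatives were DESeq2 1.42.0 size factors and Wald test, limma-voom (limma 3.58.1), other filters, the replicate block, covariates for acinar genes and 7SL RNA, a fit of both models together, all 17 HGS2 tumors, and each library left out. The same tests without 60577 TP2 control replicate 2 were added after the data were seen.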

Additional observations from a re-analysis of the deposited data

Results flagged for a closer look

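Among 60 groups of 4 to 7 tumors examined for a library far from the rest, 7 gave a flag. Chance flags about 1 in 20 groups. The groups share tumors and the members vary together, so the flags are not independent and their count cannot be read against that rate. Each flag was the same library, 60577 TP2 control replicate 2, set among the 6 controls of its model. Its level was 0.653 CPM for Cdh5, 28.4 CPM for Kdr, 0.187 CPM for Tek, 0.467 CPM for Tie1, 0.0311 CPM for Emcn, 0.467 CPM for Plvap and 0.622 CPM for Angpt2. In each case the gap to the next control, divided by the range of the 6 in log2 CPM, exceeded the critical value of Dixon's test at 95%, with quotients of 0.627 (Tie1) to 0.778 (Angpt2). Pecam1 (9.95 CPM) and Vwf (4.7 CPM) were also lowest there without passing it. In groups of 3 no such test was made.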

How the results depend on the processing

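Numbers are members called of 10 (cell lines, of those tested). Shares of all genes called are given in the Results only for the main fit and for the fit without 60577 TP2 control replicate 2. Under other settings the numbers show how calls depended on the fit and cannot be read against a background. DESeq2 size factors, filterByExpr and all 17 HGS2 tumors left every such number within 1.5 times. With an absolute log2 fold change above 1 required, the numbers in 60577 were 0 at TP1 and 0 for treated TP2 against TP1. Fitting both models together gave 0 and 0 for these. The DESeq2 Wald test gave 3 at TP1 and 4 for the model controls, and limma-voom 8 at TP3 and 7 for the model controls. With acinar genes as a covariate the 60577 numbers were 2 at TP1, 8 at TP2, 8 at TP3, 1 for treated TP3 against TP2 and 1 for control TP2 against TP1, and Kdr at TP2 turned to 1.30 (adjusted p = 0.00831). With the share of 7SL RNA they were 1 at TP2, 2 at TP3 and 0 for treated TP2 against TP1. No filter on low counts gave 5 in the cell lines. The replicate block gave 1 at TP2 and 0 for the model controls. The labels do not pair tumors, so the numbers were not taken as pairs, and the permutation tests of ratios do not use them. Of 12 same-numbered pairs 8 had deviations correlated above 0.1 (-0.28 to 0.3). These include every pair at TP2, with 0.11 to 0.14 in 60577 and 0.14 to 0.30 in HGS2, so a shared effect of the number was not excluded. Added after the data were seen, without 60577 TP2 control replicate 2, TP1 gave 2 with limma-voom, 6 with DESeq2 and 4 with the replicate block, treated TP3 against TP2 gave 6, 7 and 7, and the model controls 1, 4 and 0. The causes were not tested.

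With each library left out in turn, the numbers ran from 1 to 5 at TP1, 1 to 4 at TP2, 4 to 7 at TP3, 0 to 1 for treated TP2 against TP1, 0 to 6 for treated TP3 against TP2, 0 to 7 for the model controls, 0 to 1 for the TP2 difference between models, 0 to 3 in the cell lines, and 0 in all other comparisons. The 1 for the TP2 difference came without HGS2 TP3 treated replicate 2, and the 0 in the cell lines without either 60577 library. The log2 ratio of Angpt2 to Cdh5 fell by 1.00 at the least and fell by 1.52 at the most in 60577 and ran from -0.23 to 0.42 in HGS2, that of Plvap ran from 0.37 to 0.63 and -0.13 to 0.27, and that of Vwf from 0.56 to 1.29 and 0.34 to 0.71. With Pecam1 in place of Cdh5, the exact permutation test gave 0.27 for Plvap in 60577 (p = 0.867) and 0.63 (p = 0.0443) and 0.39 (p = 0.0286) for Vwf in 60577 and HGS2. Flt1 in 60577 was called at TP2 and TP3 under each of the settings run. With 3 or 4 tumors a group, HGS2 changes smaller than about the interval given for Flt1 could not be resolved.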

Other observations

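The low values of 60577 TP2 control replicate 2 went beyond the 9 members named above. Of 18 other pan-endothelial genes 16 lay below the range of the other 5 controls and 0 above, as did 9 of 11 receptors and co-receptors, with 0 above. The share of all genes outside that range in this library was not counted, so the lists can be compared only with each other. Of the 12 pericyte and smooth muscle genes 8 lay below and 0 above, among them Rgs5, a pericyte marker, at 1.56 CPM against 46.6 to 109 CPM. Angiogenic ligands went both ways, with 5 of 12 above and 2 below. Vegfa was 1138 CPM against 330 to 429 CPM, and Pgf 5.72 CPM against 1.38 to 4.23 CPM, whereas Angpt1, which pericytes are known to supply, was 0.311 CPM against 2.08 to 4.62 CPM. Fibroblast genes had 2 of 6 below and 2 above, epithelial genes 1 of 6 below and 3 above, mesothelial genes 4 of 5 below and 0 above, macrophage genes 4 of 6 below and 1 above, adipocyte genes 4 of 8 below and 1 above, and pan-leukocyte genes 2 of 5 below and 1 above. This tumor thus held Flt1 at 214 CPM and Kdr at 28.4 CPM beside almost no Cdh5, and in the cultured 60577 line, scaled separately, the same genes were at 29.1 and 34.2 CPM for Flt1 and 23.9 and 24.8 CPM for Kdr. Why the library differs was not tested.

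HGS2 TP3 treated replicate 1, which the study's tables leave out, held the highest Pecam1 (213 CPM) and Vwf (194 CPM) of the 34 tumors, Plvap at 152 CPM, and Cdh5 at 100 CPM. Its Flt1 was 81.5 CPM and its Kdr 67.3 CPM, within the range of the other TP3 tumors.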
